A study of Mus musculus with 4 samples.

Results

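The genes described here are those whose listed symbol marks them as ubiquitin-specific proteases (USP, 42 genes) or F-box genes (41 genes). They were taken by name from lists of m6A peaks in mouse embryonic stem cells, with every listed peak and with Fbxw7 left aside. Together they are 83 of the 9949 genes with a peak in any library and hold 418 of the 46417 peaks. The name pattern also takes in Usp6nl, which encodes a Rab GTPase-activating protein and not a protease. The tested cells carried the Mettl5-/- genotype (2 libraries, knockout 1 and knockout 2), and the other cells were wild type (2 libraries, wild type 1 and wild type 2, whose titles differ in wording). All 4 libraries came from embryonic stem cells of the C57BL/6N strain. Total RNA was broken into fragments and precipitated with an anti-m6A antibody, and sequenced after reverse transcription by the SMART method. No source used here says whether the knockout libraries come from 1 clone or several, or whether the libraries of a genotype are separate cultures, so the permutation p-values below measure only the spread between these libraries, which may be technical.

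Ubiquitin is attached to proteins by ligases and removed by deubiquitinases. The USP enzymes are the largest family of deubiquitinases. They are cysteine proteases that cleave ubiquitin from their substrates. F-box proteins work on the opposite side: each binds Skp1 through its F-box, joins a Cul1-based SCF ligase and brings a chosen substrate to it. Fbxw proteins bind substrates through WD40 repeats, Fbxl proteins through leucine-rich repeats, and Fbxo proteins through other domains. N6-methyladenosine is the most common internal modification of mRNA, is written on mRNA mainly by Mettl3 with Mettl14, and lies mostly in long exons and near stop codons. Mettl5 methylates 18S ribosomal RNA.

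The lists held 12699 and 10821 peaks in knockout 1 and knockout 2, against 11696 and 11201 in wild type 1 and wild type 2. Library depth and RNA level were not analysed here, so a gene with no listed peak may have no methylation, little RNA or too few reads. No library listed a peak in Mettl5, so the lists do not check the genotype. Of 10 stem cell markers, 7 had a peak in all 4 libraries, among them Sox2, Klf4 and Esrrb, while Nanog, Zfp42 and Dppa5a had none. Of 7 feeder fibroblast markers only Vim had a peak. Of 6 neural markers 4 had a peak (2 in all 4 libraries), and of 7 mesoderm and endoderm markers 4 had one (3 in all 4). Peak strength is given below as the percentile of the authors' p-value within its own list, with 100 the strongest, and the best peak stands for a gene. Percentiles and the authors' folds describe peaks within a list and are not compared between lists of unequal length.

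The letters under 2 start-site peaks are shown because they hold the usual m6A sequence context. The first 50 transcribed bases after a RefSeq start site reached into a listed peak of Fbxl12, Fbxl19, Fbxo48, Fbxo8 and Usp27x. Only the part of these bases inside the peak was searched, from 20 bases in Fbxl12 to all 50 in Fbxl19 and Fbxo8. The search was on the transcript strand, for the pentamers in which m6A is usually found. These are A, G or T, then A or G, then AC, then A, C or T, which gives 18 words. The words were found under the peaks of 2 of these genes. Bases are from RefSeq (GRCm38.p6, plus strand), and capitals mark the words.
Fbxl19, chr7:127746783-127746812, bases 9 to 38 from the start site: agctgAGACTcatacccgGGACTgagtggg
Fbxo8, chr8:56551174-56551203, bases 21 to 50 from the start site: aggtgctgTGACTtcgcgggagtctggggc
The Fbxl19 stretch lies in a 5′ UTR peak listed only in knockout 2, at percentile 40.4 with a fold of 18.7. The Fbxo8 stretch lies in a 5′ UTR peak listed only in wild type 1, at percentile 17.5 with a fold of 10.8. Over all 32851 start-site windows of the RefSeq table, 54.4% held at least 1 of the 18 words. Those windows were not cut to the part inside a peak, so this share is not a like background for the 2 genes. GGACT was in 5.76%, AGACT in 5.14% and TGACT in 4.62% of them. A match is a description of the letters and not a mapped site.

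Of 21896 protein-coding gene symbols in RefSeq, 8243 (37.6%) had a listed peak in any library. RefSeq names 56 protein-coding USP genes, of which 42 had a peak and 14 had none. Those without were Usp1, Usp3, Usp4, Usp5, Usp7, Usp9x, Usp9y, Usp11, Usp13, Usp15, Usp18, Usp32, Usp33 and Usp39. They include all of the close paralogs Usp4, Usp11 and Usp15, and also Usp13 and Usp5, the latter of which recycles free ubiquitin chains. Of 18 Fbxl genes 12 had a peak, and of 36 Fbxo genes 22 had one under their current symbol, with Fbxo18 listed under an older symbol. Of 23 Fbxw genes 6 had a peak. The 17 without include the run of Fbxw13 to Fbxw28 genes other than Fbxw17, and also Fbxw8 and Fbxw9. Fbxo15, long used as a marker of embryonic stem cells, had no listed peak, nor had Fbxo11 or Fbxl21.

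Both families had overlapping numbers of peaks in knockout and wild-type libraries. Knockout 1 and knockout 2 held 64 and 57 USP peaks, against 60 and 55 in wild type 1 and wild type 2. The mean was 60.5 ± 4.95 in knockout and 57.5 ± 3.54 in wild type (SD, n = 2 each; exact two-sided permutation p = 0.667). F-box peaks numbered 54 and 43 in the knockout libraries, against 45 and 40 in the wild-type libraries. Their mean was 48.5 ± 7.78 in knockout and 42.5 ± 3.54 in wild type (SD, n = 2 each; exact two-sided permutation p = 0.667). The genotypes overlapped for both families, and knockout 1, the longest list of the series, held most peaks of each. With 2 libraries against 2 the exact test cannot go below p = 0.333. USP genes with a peak numbered 37 and 35 in knockout, against 36 and 35 in wild type, and F-box genes 35 and 29, against 33 and 31.

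A peak was listed in all 4 libraries for 30 of 42 USP genes (71.4%) and 24 of 41 F-box genes (58.5%), beside 57.1% of all genes with a peak. At the other end, 12 of the 83 genes (14.5%) had a peak in 1 library, beside 17.0% of all genes. Among them were Usp8, which acts on endosomal sorting, and Usp19, a protease anchored in the endoplasmic reticulum. Several of these peaks were weak: Usp26 was at percentile 3.99, Usp8 at 8.11, Fbxl15 at 4.08 and Fbxo18 at 1.28 in the library that listed them. Usp44, by contrast, was at 91.8 in knockout 2.

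**Figure D1:**
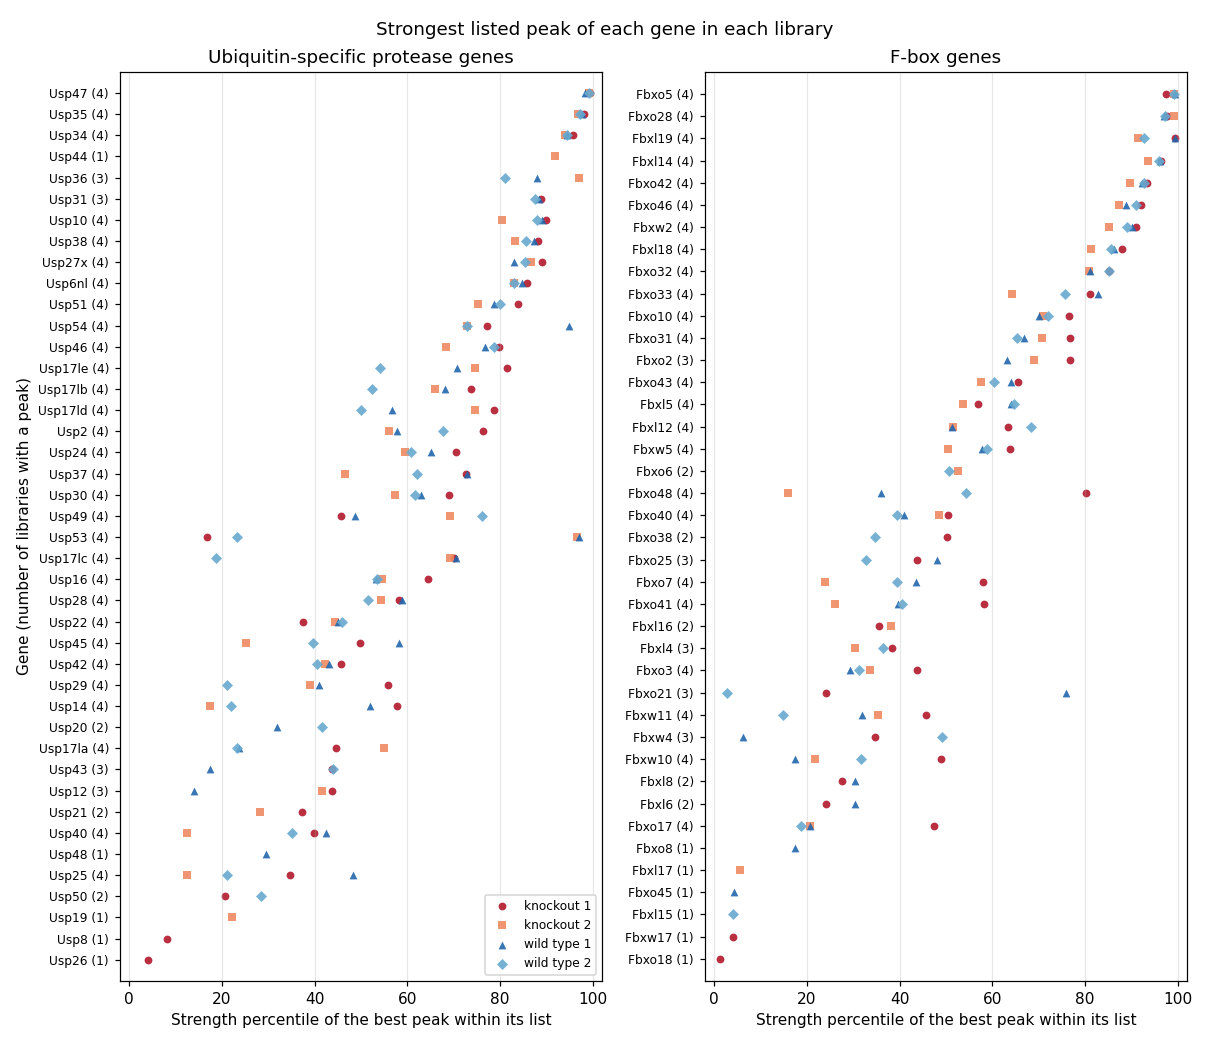
Strength percentile of the best peak of the USP genes (left) and F-box genes (right) described here, in each library, with 100 the strongest peak of a list. Each point is 1 library, the number in brackets is how many of the 4 libraries list the gene, and genes are ordered by their mean. Usp47 and Fbxo5 lead with means of 99.0 and 98.7, and the genes listed in 1 library lie mostly at the bottom.

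Among the USP genes with a peak in all 4 libraries, the 3 strongest had coding-sequence peaks at nearly the same place in each. Strong USP peaks that were missing from some lists are described further below. Usp47, which acts on the base excision repair polymerase Polb, had a coding-sequence peak at chr7:112092662-112093651 (mm10). Its percentile was 99.5 in knockout 1 and 99.1 in knockout 2, against 98.4 in wild type 1 and 99.1 in wild type 2. The authors' folds for it were 669 and 410 in knockout, against 1380 and 649 in wild type. The peak was thus near the top of every list, while its fold varied by library within each genotype. Usp35 followed at chr7:97311789-97313056, also in coding sequence. It reached percentiles 98.2 and 96.9 in knockout, against 97.6 and 97.3 in wild type. Usp34, a very large protease that acts on Axin in Wnt signalling, had its best peak over 3 exon blocks at chr11:23487124-23489512. It stood at 95.7 and 94.0 in knockout, against 94.4 and 94.5 in wild type. All 3 genes were near the top of every list. In lists cut to equal length their knockout and wild-type values overlapped.

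The next USP genes with a peak in every list had their best peaks in different transcript parts. Usp10, which stabilises p53 and binds the stress granule protein G3bp1, carried a 3′ UTR peak at chr8:119956601-119957530. It was at 89.9 and 80.4 in knockout, against 89.0 and 88.0 in wild type. Usp38, a paralog of Usp35, had a coding-sequence peak at chr8:81013853-81014719 with a mean percentile of 86.1. In each of the 4 libraries this peak overlaps a peak of Gm9725 on the opposite strand, as 1 Usp34 peak per library does with Ahsa2, and the counting is not stated to use strand. Usp27x and Usp51, X-linked relatives of Usp22 that remove ubiquitin from histone H2B, averaged 86.0 and 79.4. The Usp27x peak was classed as exon in knockout 1 and wild type 2 and as 3′ UTR in knockout 2 and wild type 1, and that of Usp51 as coding sequence. Usp6nl averaged 84.2 over a coding-sequence region at chr2:6440399-6442256. The weakest of the 30 genes with a peak in every list were Usp14 (mean 37.3), the proteasome-bound USP, Usp17la (36.6), Usp40 (32.5) and Usp25 (29.1), a paralog of Usp28. Usp14 was at 57.8 and 17.5 in knockout, against 52.0 and 22.0 in wild type. In lists of equal length it was at 50.5 and 17.5 in knockout, against 48.1 and 19.2 in wild type, and the genotypes overlapped.

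F-box genes reached the same heights. Fbxo5, or Emi1, which inhibits the anaphase-promoting complex, had a coding-sequence peak spread over up to 6 exon blocks at chr10:5799280-5805391. Its percentile was 97.4 and 99.1 in knockout, against 99.4 and 99.1 in wild type, with folds of 374 and 156, against 235 and 559. Fbxo28, known in human cells to ubiquitylate MYC, had a coding-sequence peak at chr1:182316328-182317957. It was at 97.7 and 99.1 in knockout, against 97.1 and 97.2 in wild type. Fbxl19, which binds CpG islands through a CxxC zinc finger, was the exception in position, with a 3′ UTR peak at chr7:127767603-127769214. It was at 99.5 and 91.4 in knockout, against 99.4 and 92.8 in wild type, so each genotype had 1 list with it at the very top. The values above 99 in these genes are ties among peaks whose log10 p-value is not finite in the lists.

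Fbxl14, which targets the transcription factor Snai1, was at 96.4 and 93.7 in knockout, against 96.2 and 96.0 in wild type (chr6:119479788-119481523, coding sequence). Fbxo42, known in human cells to act on p53, averaged 92.0 over a coding-sequence region at chr4:141198065-141201215. Fbxo46 (89.8, chr7:19135656-19137600), Fbxw2 (88.9, chr2:34822505-34823194) and Fbxl18 (85.2, chr5:142885318-142887328) completed the 8 strongest. The Fbxw2 peak had no finer class than exon, and the other 2 lay in coding sequence. The weakest F-box genes with a peak in every list were Fbxo3 (34.4), Fbxw11 (32.0), Fbxw10 (30.01) and Fbxo17 (27.0). Fbxw11 is the paralog of the β-TrCP gene Btrc, which had no listed peak.

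Strength over each family was close to that of all genes. Over the genes with a peak in all 4 libraries, the median of the mean percentile was 63.8 for 30 USP genes and 65.9 for 24 F-box genes, beside 66.4 for 5683 genes of the series. The median best percentile of USP genes was 68.9 and 65.9 in the knockout lists, against 64.0 and 54.1 in the wild-type lists. For F-box genes it was 58.2 and 53.8, against 58.6 and 58.9, and for all genes it lay between 59.1 and 59.9. The averages over the 4 libraries were 63.2 for USP and 57.4 for F-box genes. Since the lists differ in length, no direction between genotypes is read from these medians.

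By role, the USP genes that act on chromatin ranged widely. Usp22, the deubiquitinase of the SAGA complex, was at 37.6 and 44.4 in knockout, against 45.1 and 46.0 in wild type. Usp16, which removes ubiquitin from histone H2A, was at 64.5 and 54.5 in knockout, against 53.2 and 53.4 in wild type. Usp3 and Usp7 had no listed peak. Of the proteases that work with the Wdr48 cofactor, Usp46 had a 3′ UTR peak at 79.7 and 68.4 in knockout, against 76.7 and 78.8 in wild type. Its paralog Usp12 had a 3′ UTR region at 43.7 and 10.6 in knockout, against 14.0 in wild type 1 and no listed peak in wild type 2. The best Usp12 peak of knockout 2, at 41.5, was a separate coding-sequence peak listed there alone. Usp1, the other partner, had none. Usp45, linked to DNA repair, was at 49.8 and 25.2 in knockout, against 58.3 and 39.6 in wild type. Usp48 was listed only in wild type 1, at 29.5.

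Usp28 and Usp36, both known to oppose Fbxw7 on Myc, were listed in 3 or more libraries each. Usp28 had a 3′ UTR peak at 58.3 and 54.3 in knockout, against 58.8 and 51.5 in wild type. Usp36 had no peak in knockout 1 and is described with the incomplete regions. Usp30, anchored in the mitochondrial outer membrane, was at 68.9 and 57.3 in knockout, against 63.0 and 61.6 in wild type. Usp24, another very large protease, was at 70.4 and 59.5, against 65.0 and 60.9. Usp2 was at 76.4 and 56.1, against 57.8 and 67.8. In lists cut to equal length the knockout and wild-type percentiles of Usp28, Usp30, Usp24 and Usp2 overlapped.

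Among F-box genes of the cell cycle, Fbxo5, Fbxo31 and Fbxo43 each had a peak in all 4 libraries. Fbxo43, or Emi2, the meiotic relative of Fbxo5, had a coding-sequence peak at 65.6 and 57.5 in knockout, against 64.0 and 60.4 in wild type. Fbxo31, which targets cyclin D1, had a 3′ UTR peak at 76.7 and 70.8, against 66.9 and 65.4. Fbxl5, the iron-sensing receptor for Irp2, had an exonic peak over 2 blocks at 56.8 and 53.8, against 64.0 and 64.8. Of the glycoprotein-binding members, Fbxo17 had a peak in all 4 libraries. Fbxo2 was listed at 76.7 and 69.0 in knockout, against 63.2 in wild type 1 and no peak in wild type 2. Its neighbour and paralog Fbxo6 was listed only in knockout 2 (52.6) and wild type 2 (50.7). Fbxo44 and Fbxo27 had no listed peak. The muscle atrophy gene Fbxo32 was at 85.1 and 80.9, against 81.1 and 85.2, and Fbxo40, which targets Irs1 in muscle, was at 50.5 and 48.4, against 41.0 and 39.4. Fbxo7, mutated in an inherited parkinsonism, was at 58.0 and 24.0, against 43.6 and 39.4.

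Peaks of both families lay mainly in coding sequence and 3′ UTRs. In coding sequence lay 40.6% (95% Wilson interval 29.5 to 52.9) and 42.1% (30.2 to 55.0) of the USP peaks of knockout 1 and knockout 2. The shares were 43.3% (31.6 to 55.9) and 45.5% (33.0 to 58.5) in wild type 1 and wild type 2. The mean was 41.4% ± 1.05 in knockout and 44.4% ± 1.5 in wild type (SD, n = 2 each), a difference of -3.03 percentage points with the smallest p that the exact permutation test allows, 0.333. All 4 intervals overlap, and they cover counting error only. For F-box peaks the coding-sequence share averaged 40.4% ± 2.10 in knockout and 41.3% ± 1.77 in wild type (SD, n = 2 each; exact two-sided permutation p = 0.667). Over all listed peaks it lay between 33.7% and 36.5%, with 20.9% to 22.7% classed only as exon. That class averaged 10.6% in knockout and 7.12% in wild type for USP peaks, and 5.10% and 4.72% for F-box peaks. The shares over all peaks are therefore not a like background for the families. The 3′ UTR share was 43.8% and 43.9% in knockout, against 48.3% and 40.0% in wild type for USP peaks, and 48.1% and 41.9%, against 46.7% and 42.5%, for F-box peaks. The 5′ UTR share of F-box peaks averaged 9.52% ± 2.98 in knockout and 9.44% ± 0.786 in wild type, and that of USP peaks 4.19% ± 1.51 in knockout and 4.32% ± 0.964 in wild type (SD, n = 2 each). The F-box share rests on 4 and 5 peaks in knockout, against 4 and 4 in wild type. Fbxl12 alone held 2 of these in knockout 2, wild type 1 and wild type 2, and its 5′ UTR regions were found in all 4 libraries. In every library Fbxl12 peaks overlap peaks of Ubl5 on the opposite strand.

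**Figure D2:**
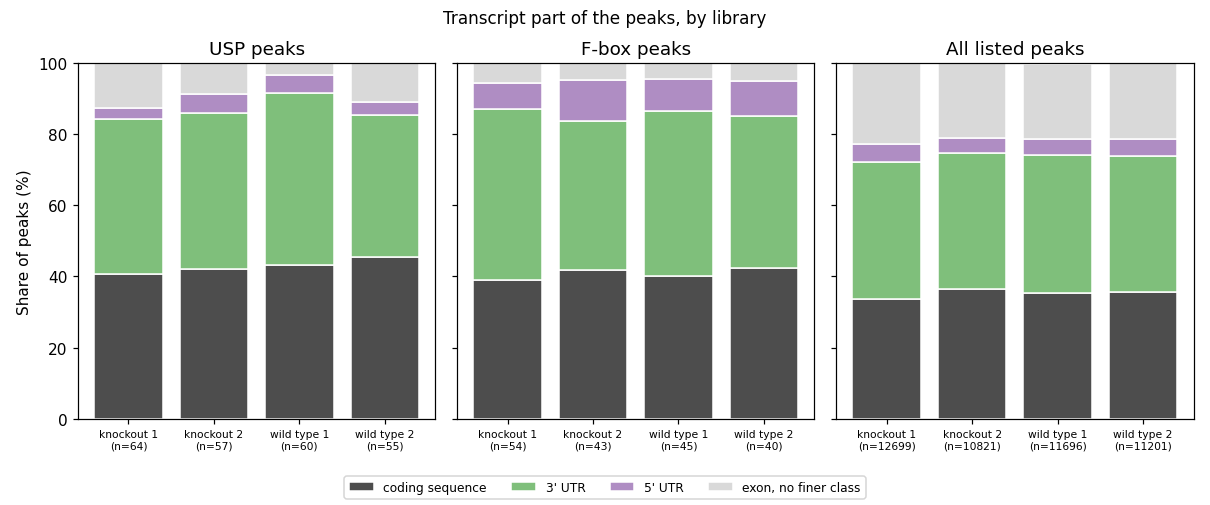
Share of peaks in each transcript part, in percent, for USP peaks, F-box peaks and all listed peaks, 1 bar per library with its number of peaks. Coding sequence takes 40.6% to 45.5% of USP peaks and 38.9% to 42.5% of F-box peaks, and the share classed only as exon is larger among all listed peaks.

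Regions in coding sequence had higher median strength than those in 3′ UTRs in both families. Regions were made by joining peaks whose exon blocks overlapped on the same strand, which gave 143 for the members (78 USP, 65 F-box) of 15972 in all. Among USP regions found in all 4 libraries, 18 in coding sequence had a median percentile of 69.8 (range 36.3 to 99.0) and 16 in 3′ UTRs one of 49.6 (22.3 to 86.8). Among F-box regions found in all 4, 13 in coding sequence had a median of 75.9 (30.01 to 98.7) and 10 in 3′ UTRs one of 43.5 (27.0 to 95.8). Over all genes the medians were 67.1 for 1985 regions in coding sequence and 60.0 for 2549 in 3′ UTRs. The ranges of the classes overlap in each family, and the 3′ UTR peaks of Fbxl19 and Usp10 stood among the strongest of all.

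Peaks that crossed an exon junction were listed for both families. Peaks of more than 1 exon block made up 7.81% and 7.02% of USP peaks in knockout (5 and 4 peaks), against 3.33% and 1.82% in wild type (2 and 1 peaks). Among F-box peaks they made up 16.7% and 18.6% in knockout (9 of 54 and 8 of 43), and were 9 of 45 and 8 of 40 in wild type. Over all peaks the share lay between 10.3% and 11.03%. In every library the F-box share was above and the USP share below that of all peaks. This difference between the families was not tested, as peaks of 1 gene are not independent.

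Of the 143 regions, 68 (47.6%) were found in all 4 libraries, beside 42.3% of all regions: 40 of 78 USP regions and 28 of 65 F-box regions. In 1 library were 37 (25.9%), beside 28.3% of all regions. Regions found in 4 libraries had a median percentile of 63.1 (USP) and 59.3 (F-box), and those found in 1 had medians of 22.1 and 17.2. A gene had 1 region in 22 USP and 25 F-box cases and more in the other 20 and 16.

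The genes with most regions were Usp29 and Usp49 with 5 each, followed by Usp27x, Usp34, Fbxl18 and Fbxl19 with 4 each. Usp29, an imprinted gene beside Peg3, had 1 region at its 5′ UTR and 4 in coding sequence near its 3′ end. The strongest of these, chr7:6963442-6963891, was at 55.7 and 39.0 in knockout, against 41.0 and 9.25 in wild type. Some Usp29 peaks overlap peaks of Zim3 on the opposite strand. Usp49, which acts on histone H2B, had all 5 regions in its 3′ UTR on chr17, and 3 of them also hold peaks listed for Gm20517. In the region at chr17:47672073-47672650, Usp49 was listed at 69.2 in knockout 2 and 76.2 in wild type 2, while the peaks of knockout 1 and wild type 1 there were listed for Gm20517 only. The best percentile of Usp49, 45.6 and 69.2 in knockout, against 48.7 and 76.2 in wild type, therefore depends on which gene name a peak was given. The region at chr17:47684197-47684615 carries Usp49 alone and was at 45.6 and 53.9 in knockout, against 48.7 and 55.9 in wild type. Usp34 kept a second coding-sequence region at chr11:23464279-23464698, at 82.8 and 74.6 in knockout, against 83.3 and 73.2 in wild type.

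**Figure D3:**
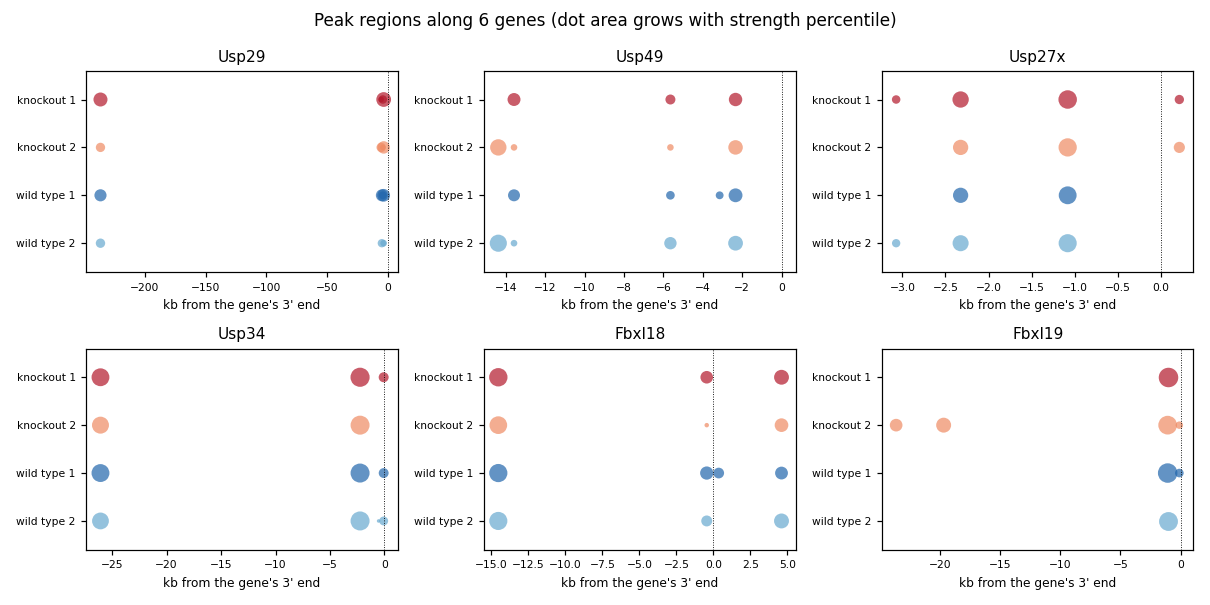
Regions with a peak listed for the 6 genes with most regions, 1 row per library. Each dot is a joined region, drawn at the same place in every row. Its place is the distance in kb of the region's middle from the RefSeq 3′ end of the gene (dotted line, negative upstream). Dot area grows with the strength percentile. Dots past the line are regions whose middle lies beyond the RefSeq gene end. The strongest region of Usp27x, Usp34, Fbxl18 and Fbxl19 is in all 4 rows, and the extra 5′ dots of Fbxl19 are in knockout 2 alone.

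Some strong regions were missing from whole lists, and none of these was listed in both libraries of 1 genotype alone. Of the 75 member regions not found in all 4 libraries, 9 reached percentile 75 in at least 1. The shares over all regions that reached this percentile are given below. Usp31 had a coding-sequence region at chr7:121648071-121649748 at 88.8 in knockout 1, with none in knockout 2, against 88.4 and 87.5 in wild type 1 and wild type 2. Its folds were 512 in knockout 1, against 557 and 289 in wild type. Usp31 was not listed elsewhere in knockout 2. Usp36 had a 3′ UTR region at chr11:118260548-118261536 that was absent from knockout 1, at 72.0 in knockout 2, against 88.0 and 81.1 in wild type. In knockout 2 alone it also had a coding-sequence peak of 5 exon blocks at 96.9.

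Usp53, one of the USP genes held to lack protease activity, had a coding-sequence peak over 3 blocks at chr3:122947349-122951277 in 1 library of each genotype. It was at 96.7 in knockout 2, against 97.0 in wild type 1, with folds of 267 and 1400. In knockout 1 and wild type 2 the gene had only a 5′ UTR peak, at 16.8 and 23.2. Its relative Usp54 had a 5′ UTR peak at chr14:20607127-20607905 in wild type 1 alone, at 94.8, while its coding-sequence region at chr14:20560906-20562193 was at 77.3 and 72.8 in knockout, against 76.2 and 72.9 in wild type. Usp44, known from the mitotic checkpoint, was listed in knockout 2 alone, with a 5′ UTR peak of 2 blocks at chr10:93843998-93847349, percentile 91.8 and fold 740. The rest were Fbxo2, and coding-sequence regions of Fbxo48 (knockout 1 alone, 80.1) and Fbxo21 (wild type 1 alone, 75.9).

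Of these 9 regions, 6 had a peak of more than 1 block. Among member regions reaching percentile 75, those of 1 block were in all 4 libraries in 20 of 23 cases (87.0%), and those of more blocks in 7 of 13 (53.8%). Over all regions the same shares were 78.5% of 2529 and 60.6% of 1283. Whether joining of exon blocks by the peak caller has a part in this was not tested.

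Few members followed genotype by presence. A peak in both knockout libraries and neither wild-type library was listed for 2 of 83 genes (2.41%), Usp21 and Fbxl16, beside 2.27% of all genes. The reverse held for 1 gene, Usp20 (1.20%), beside 1.56% of all genes. Usp21, which acts on histone H2A and, in mouse embryonic stem cells, on Nanog, had an exonic peak at chr1:171286582-171287031 at percentiles 37.3 and 28.2 in knockout, with folds of 6.68 and 6.72. Fbxl16 had a 3′ UTR peak at chr17:25820615-25821004 at 35.6 and 38.2 in knockout, with folds of 9.21 and 14.6. Usp20, known to act on the von Hippel-Lindau pathway, had a coding-sequence peak at chr2:31010198-31010498 at 32.0 and 41.5 in wild type, with folds of 15.2 and 28.9. All 3 lay in the weaker part of their lists, and both shares were near those of all genes. With 1 library left out, the knockout-only count was 5 without knockout 1, 6 without knockout 2, 4 without wild type 1 and 3 without wild type 2. The wild-type-only count was then 6, 2, 2 and 5 in the same order. With a library left out the condition is easier to meet for any gene, and the matching shares over all genes are not given here.

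By region, 6 of 143 were knockout-only (4.20%, beside 2.50% of all regions) and 2 were wild-type-only (1.40%, beside 2.03%). The knockout-only ones were those of Usp21 and Fbxl16, with 1 each in Usp16 (chr16:87473162-87473342), Usp27x (chrX:7372271-7372480), Fbxo28 (chr1:182315850-182316089) and Usp29 (chr7:6961463-6961733). Their highest percentile was 39.5, reached by Fbxo28 in knockout 2. The wild-type-only ones were that of Usp20 and a further Usp29 region (chr7:6962003-6962333), at 35.9 and 16.2. Leaving out knockout 1, knockout 2, wild type 1 or wild type 2 gave 15, 19, 11 and 11 knockout-only regions and 7, 3, 5 and 14 wild-type-only regions. Here too the condition is easier to meet, and the matching shares over all regions are not given. Usp29 thus had 1 region on either side, in the same stretch of coding sequence.

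Ranks were set against each other only after each list was reduced to its 10821 strongest peaks, a comparison added after seeing the data. All 54 members with a peak in every list kept one. In 14 of them (25.9%) both knockout percentiles were above both wild-type percentiles, beside 18.5% of 5531 genes. In 4 (7.41%) both were below, beside 18.7%. Above were Usp16, Usp27x, Usp29, Usp17la, Usp17lb, Usp17ld and Usp17le, with Fbxo3, Fbxo10, Fbxo17, Fbxo28, Fbxo31, Fbxo40 and Fbxw11. Below were Usp40, Fbxl5, Fbxl14 and Fbxo5, of which Fbxo5 has tied values at the top of 3 lists. The ranks carry no account of RNA level.

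Of the 7 USP genes above, 4 belong to the Usp17l group, near-identical rodent copies that lie together on chr7 and whose reads the mapping could split or share. All 5 listed copies had a coding-sequence peak in every library. In the lists of equal length, Usp17ld (chr7:103249974-103250537) was at 75.05 and 74.6 in knockout, against 53.1 and 48.2 in wild type. Usp17le (chr7:104768256-104768998) was at 78.3 and 74.7, against 68.3 and 52.5. Usp17la was at 35.0 and 54.9, against 17.6 and 20.5, and Usp17lb at 69.2 and 65.9, against 65.5 and 50.7. Usp17lc, at 64.8 and 69.3, against 68.1 and 16.0, overlapped between genotypes. These copies are not independent, and their values are uncertain for the same reason. Without them 10 of 49 members (20.4%) were above and 4 (8.16%) below. For the other genes the gaps were mostly small: Fbxo10 was at 72.4 and 70.96 in knockout, against 67.6 and 70.92 in wild type. Wider gaps were those of Fbxw11, at 36.2 and 35.4, against 26.5 and 11.8, and of Fbxl5. Fbxl5, a gene below, was at 49.4 and 53.8 in knockout, against 61.1 and 63.6 in wild type.

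**Figure D4:**
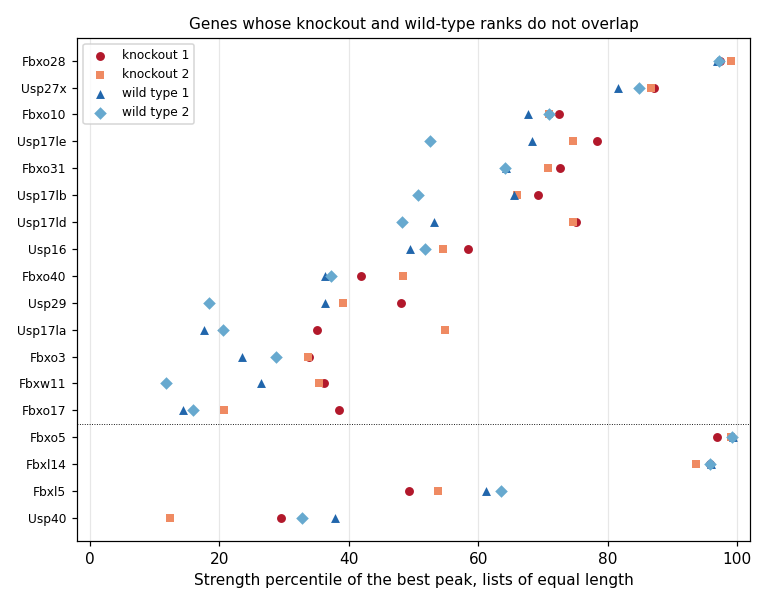
Strength percentile of the best peak in lists of equal length (10821 peaks each) for the 18 members whose knockout and wild-type values do not overlap, 1 point per library. The 14 genes above the dotted line were higher in both knockout libraries, and the 4 below it were lower in both. For Fbxo5, below the line, the order of knockout 2 and the wild-type lists is set by the number of tied peaks. The widest gaps are those of Usp17ld and Usp17la, and most others are narrow.

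Genes that work with the families were counted in the same way, beside the 57.1% of all genes with a peak that had one in all 4 libraries. Of 19 SCF core and regulator genes 10 had a peak, 7 in all 4 libraries. Cand1, the exchange factor that swaps F-box proteins on Cul1, averaged percentile 93.2. Cops2, a subunit of the signalosome that removes Nedd8 from cullins, averaged 94.7, and Ube2m, which attaches Nedd8, 79.5. None was knockout-only or wild-type-only. Of 7 F-box genes under other names 5 had a peak and 3 had one in all 4 libraries: Skp2 (74.3), Ccnf (71.7), which encodes cyclin F, and Kdm2a (77.5), a histone demethylase.

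Of 33 other deubiquitinases 24 had a peak and 14 had one in all 4 libraries. Otud4 was the strongest with a mean of 98.9, and the proteasome-bound Uchl5 averaged 93.3. Otub2 was the 1 knockout-only gene, at 32.6 and 57.2, and none was wild-type-only. All 7 USP cofactors had a peak, 3 of them in every list. Atxn7l3, which activates Usp22, averaged 96.4, Wdr48, the partner of Usp1, Usp12 and Usp46, 79.5, and Gmps, a partner of Usp7, 56.2. Wdr20, a further partner of Usp12 and Usp46, was listed in knockout 2 at 95.9, against wild type 1 at 96.5, with no peak in the other library of either genotype.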

How the data were processed

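Each library of m6A-enriched RNA has 1 deposited peak list, so the authors called peaks per sample and not on pooled samples. HISAT2, HOMER and mm10 are named in the submitters' processing notes. The peak caller is not given in the sources used here, and the enrichment input is unnamed. Per the file headers, each deposited peak has a p-value with its log10, a fold enrichment (a ratio to a background), a span, exon blocks, a transcript class and a gene. The members and gene lists were chosen with earlier results of these data known.

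Deposited starts count from 0, as set against RefSeq gene starts, and 1 was added. Peaks off the reference chromosomes (6, 3, 3 and 5 in knockout 1, knockout 2, wild type 1 and wild type 2) were left out. Regions are unions of same-strand peaks sharing at least 1 bp of exon block. Strength was each p-value's percentile in its own list. No finite log10 p-value was listed for 139, 200, 152 and 192 peaks in the same order, which are tied at the top. Counts were set beside all genes or regions. Means were compared by exact two-sided permutation over libraries.

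Genes named with values were those of 1 genotype only, the 8 strongest and 4 weakest of each family with a peak in all 4 libraries, those with most regions, and fixed role groups. The strong incomplete regions, the genes with a peak in 1 library and the comparison of ranks between lists of equal length were looked at after seeing the data. Alternatives were an adjusted p-value under 0.05, counts in lists of equal length, only the stronger 50% of a list, strength by fold, a reciprocal overlap of 50%, no Usp6nl and each library left out. Those added after seeing the data were no Usp17l copies and overlap on either strand. The values of 1 member counted in the totals are not reported here. Of 418 member peaks, 403 overlapped the RefSeq gene of the same symbol. Region making was tested on simulated data, which were copies of the wild type 1 list with small shifts. Real lists also differ in the width and blocks of a peak, which that test did not cover. Python 3.11.15, numpy 2.4.6, pandas 2.3.3, scipy 1.17.1 and matplotlib 3.10.9 were used.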

Additional observations from a re-analysis of the deposited data

How the results depend on the processing

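Of 60 recomputed values under other settings 51 kept within the spread or within 1.5 times, and of 52 with 1 library left out 38 did. The 60 include those with an adjusted p-value under 0.05. That setting removed only 1 member peak, in knockout 1, so its values could hardly move and say little on stability. Of the values that moved, 14 came from leaving out a library and 9 from the other settings. Most of those 9 came from keeping the stronger 50% of each list, which by its construction holds fewer peaks. There the knockout minus wild-type difference in the coding-sequence share of USP peaks was 4.25 percentage points, against -3.03 with all peaks. The median strength of USP best peaks was 54.4, against 63.2, and USP genes with a peak in all libraries numbered 17, against 30. Member regions in all libraries numbered 38, against 68. Knockout-only genes and wild-type-only genes were 0 and 0, against 2 and 1, and knockout-only and wild-type-only regions 1 and 0, against 6 and 2. The shares over all genes or regions in the stronger 50% of each list are not given here, so these counts have no background beside them. With strength by fold the F-box median was 63.0, against 57.4, and the cause was not tested. With each library left out in turn, knockout-only genes ranged from 3 to 6, wild-type-only genes from 2 to 6, knockout-only regions from 11 to 19 and wild-type-only regions from 3 to 14. These counts rest on an easier condition and have no matching share over all genes or regions. The knockout minus wild-type difference in peak number then ranged from -0.5 to 6.5 for USP and from 0.5 to 11.5 for F-box peaks. That in the F-box coding-sequence share ranged from -2.36 to 0.61 points. No paired analysis was possible because the wild-type labels carry no replicate number and no model was fitted here. The depth behind each list is unknown, which limits every statement on a missing peak.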
